A study of Mus musculus with 116 samples.

Results

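The mitosis genes described here are 40 listed genes whose products drive entry into mitosis, chromosome condensation, spindle assembly, the spindle checkpoint, anaphase and cytokinesis. Members were matched by the platform's gene symbol, with older aliases such as Cdc2a for Cdk1 updated through Entrez identifiers, and the probes of a symbol were averaged. Of the 40 listed genes 37 were measured, among 15097 symbols in all: 34 by 1 probe and 3 (Plk1, Smc2 and Anln) by 2 probes. Ccnb1, Smc4 and Ncaph had no probe that named them alone and are not analysed here.

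FDB1 is a mouse myeloid line that needs a growth factor: it proliferates in IL-3 and differentiates in GM-CSF. The series compared 4 kinds of FDB1 culture on spotted 2-colour arrays: V449E cells, FI-Delta cells, parental cells moved to GM-CSF, and parental cells in IL-3. V449E and FI-Delta are mutants of the common beta chain shared by the receptors for GM-CSF, IL-3 and IL-5. V449E is a transmembrane substitution known to give factor-independent growth, and FI-Delta is an extracellular duplication known to give factor-independent differentiation. All cultures had been kept in medium with 10% serum and 500 U/mL IL-3 and were washed 3 times at 0 h, when IL-3 was removed. V449E and FI-Delta cells were then kept without any factor and parental cells were placed in 500 U/mL GM-CSF, and RNA was taken at 6, 12, 24, 48 and 72 h. Parental cells at 0 h serve as the start of the GM-CSF course and as the control for both mutant lines at 0 h. No parental culture without factor, or kept in IL-3 beyond 0 h, is among the conditions, and the labels do not say whether each mutant line was 1 clone.

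Most members are silent or low in resting cells and are made together late in the cell cycle, in G2 and early mitosis, so in a growing population their RNA tracks the share of cells that are dividing. Their promoters typically carry CCAAT boxes, which bind NF-Y, and a cell cycle genes homology region (CHR), through which the DREAM and MMB complexes repress them in G0 and G1 and activate them in G2. Cyclin A2, cyclin B and Cdk1 start mitosis, Aurora and Polo-like kinases build the spindle, condensin and Top2a shape chromosomes, and Cdc20 with Ube2c lets the anaphase-promoting complex end mitosis. In bulk RNA, fewer mitotic cells and less RNA per cell cannot be told apart.

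RNA came from 18 conditions in duplicate, 36 RNAs in all. They were hybridised directly in 28 pairings on 116 arrays, which form 58 dye-swap pairs. The deposited values were read as log2 of Cy5 over Cy3, a likely reading since Cy5 is the first channel and limma gives that ratio. Neither the base nor the direction is stated. If the direction were turned, the sign of every level and difference below would turn. The values are ratios without intensities, so the signal over background, the absolute level of any gene and the presence of a marker are unknown. The precision of a difference is limited by having 2 RNAs per condition. A level below is the log2 level of a gene in 1 RNA relative to the mean of the 18 RNAs of the same replicate, and levels of different genes are not comparable. Differences between conditions were tested with limma over all 15097 genes, and a member was called at a Benjamini-Hochberg adjusted p under 0.05. The slides came from a first print run (90 arrays, print run 1) and a second (26 arrays, print run 2). In 3 sets of arrays, the GM-CSF course, the FI-Delta to GM-CSF comparison and FI-Delta to parental cells at 0 h, all of replicate 2 is on print run 2 slides and all of replicate 1 on print run 1 slides, so there replicate and print run cannot be told apart.

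In all 3 cultures the median level of the 37 members was lower at 12 h after IL-3 removal than at the start. At 48 h it was above the start in both replicates of V449E and GM-CSF and in replicate 1 of FI-Delta. In V449E cells the median level of the members was -0.12 and -0.05 in the 2 replicates at 0 h, -0.09 and -0.11 at 6 h, -0.44 and -0.16 at 12 h, -0.13 and -0.35 at 24 h, 0.0012 and 0.07 at 48 h, and -0.02 and 0.0045 at 72 h. In FI-Delta cells it was 0.02 and 0.16 at 0 h, 0.16 and -0.0015 at 6 h, -0.18 and -0.16 at 12 h, -0.04 and -0.25 at 24 h, 0.20 and 0.02 at 48 h, and -0.13 and 0.04 at 72 h. In parental cells it was 0.14 and 0.20 at 0 h, and in GM-CSF 0.04 and 0.02 at 6 h, -0.06 and -0.08 at 12 h, 0.13 and 0.12 at 24 h, 0.39 and 0.32 at 48 h, and 0.17 and 0.38 at 72 h. Both 12 h replicates lay below both 0 h replicates in each culture, and the 24 h replicates of V449E and of FI-Delta were far apart, replicate 2 being the lower. Both parental replicates at 0 h lay above both V449E replicates at 0 h, while FI-Delta replicate 2 overlapped the parental pair. The highest mean level was in GM-CSF at 48 h for 21 members and in GM-CSF at 72 h for 10, and the lowest was in V449E at 12 h for 18 and in V449E at 24 h for 9.

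**Figure D1:**
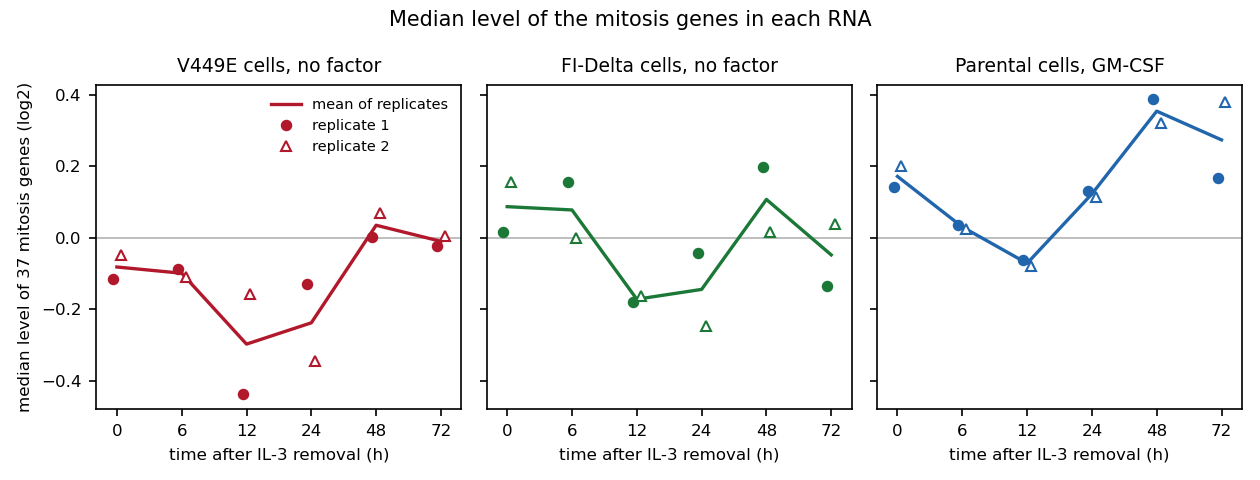
Median level of the 37 measured mitosis genes (log2, relative to the mean of a replicate's RNAs) against the time after IL-3 removal in hours, in V449E cells, FI-Delta cells and parental cells in GM-CSF. Filled circles are replicate 1, open triangles replicate 2 and the line their mean: the means over replicates at 12 h are -0.30 in V449E, -0.17 in FI-Delta and -0.07 in GM-CSF.

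Most members followed this course. Across the 36 RNAs, which share arrays and a common centring, 31 of 37 members correlated with the mean of the other members at r over 0.7 (median 0.87). The highest values were for Birc5 (survivin, the chromosomal passenger subunit that marks centromeres) at 0.96 and Ccna2 (cyclin A2) at 0.95. The 6 members under 0.7 were Nek2 at 0.64, Cks2 at 0.60, Cdc20 at 0.30, Kif22 at 0.13, Aurkb at -0.20 and Cenpl at -0.52. Aurkb, the kinase of the chromosomal passenger complex, varied little in these ratios: its condition means ran from -0.10 to 0.14, while those of Top2a ran from -0.82 to 0.55. Cdc20, the activator of the anaphase-promoting complex, ran from -0.09 to 0.09. Cenpl, a centromere protein of the constitutive network, differed mainly between cultures, with means from -0.72 in GM-CSF at 6 h to 0.77 in V449E at 48 h. In the 6 GM-CSF course conditions Cenpl lay between -1.05 and -0.52 in replicate 1 and between -0.39 and -0.19 in replicate 2. Arrays of the GM-CSF cultures lay in print run 1 for replicate 1 and in print run 2 for replicate 2. Within those arrays replicate and print run cannot be told apart. V449E and parental cells at 0 h were hybridised together in both print runs. There the direct log2 Cenpl ratio of V449E over parental cells was 1.71 and 1.79 in print run 1 (replicates 1 and 2). In print run 2 it was 0.38 and 0.19. The part of the print run in the Cenpl gap was not tested.

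**Figure D2:**
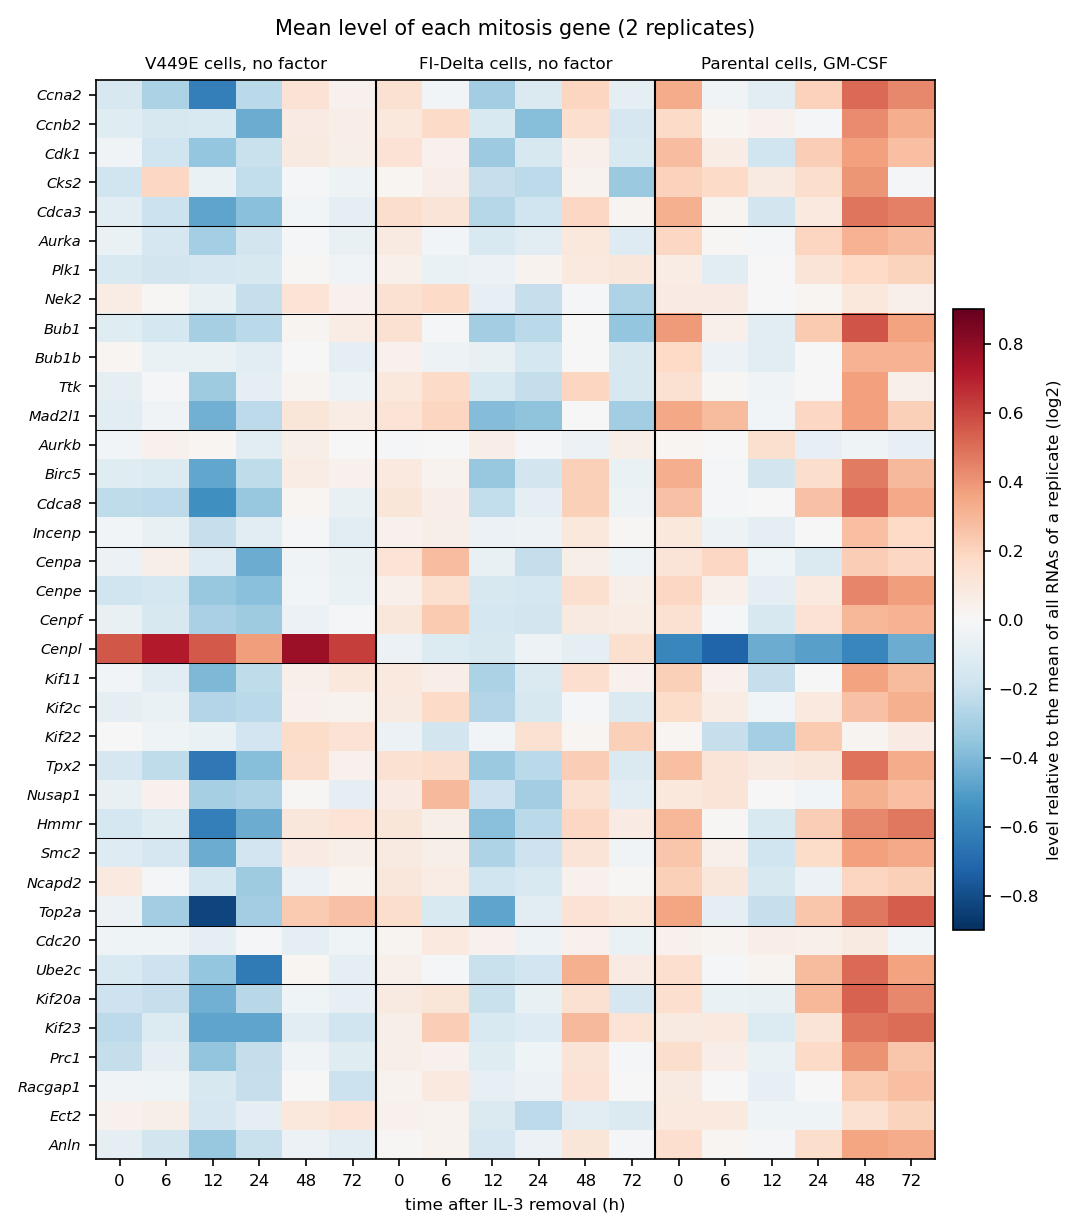
Mean level of each measured mitosis gene over 2 replicates (colour, log2, blue low and red high) by time after IL-3 removal in hours, in V449E cells, FI-Delta cells and parental cells in GM-CSF, with genes ordered by role. The 12 h columns are blue for most genes in V449E and FI-Delta and pale in GM-CSF, 21 genes have their highest mean at GM-CSF 48 h, and Cenpl is high across V449E and low across GM-CSF.

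Among the genes outside the members, the 10 most like the members' mean over the same 36 RNAs had r between 0.89 and 0.95. They were Shcbp1 (0.95), Cep55 (0.95), Poc1a (0.93), Nuf2 (0.91), Spc25 (0.91), Sgo2a (0.90), 1700102H20Rik (0.90), Knstrn (0.90), Cdc25c (0.90) and Cit (0.89), and 7 of them stood in the list of further mitosis genes. Nuf2 and Spc25 are subunits of the NDC80 kinetochore complex, Cep55 acts in abscission, Sgo2a protects centromeric cohesion, and Cdc25c is the phosphatase that activates Cdk1.

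Promoters are shown for 4 members described below. They were chosen among members whose promoter holds a CCAAT box or a CHR-like motif, so that these 4 carry such motifs was fixed by the choice. Of the 37 measured members 32 had a promoter in RefSeq (GRCm38.p6), as 34 promoters of 300 bases, 250 before and 50 after the annotated start. Capitals mark CCAAT boxes and CHR-like motifs on either strand. The box was searched as CCAAT, and when it lies on the opposite strand it is printed as ATTGG in these lines. The first CHR-like motif was searched as TTTGAA, and when it lies on the opposite strand it is printed as TTCAAA in these lines. The second CHR-like motif, which reads identically on both strands, was searched as TTCGAA in the same way.
Top2a, chr11:99024140-99024439 (-): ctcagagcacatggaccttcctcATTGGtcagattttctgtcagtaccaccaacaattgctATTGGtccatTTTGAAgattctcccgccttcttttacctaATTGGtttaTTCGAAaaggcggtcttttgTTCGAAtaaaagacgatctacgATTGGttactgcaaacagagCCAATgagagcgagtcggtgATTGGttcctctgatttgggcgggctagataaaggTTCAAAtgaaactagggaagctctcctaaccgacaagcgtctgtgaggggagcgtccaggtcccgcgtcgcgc
Cdca8, chr4:124936868-124937167 (-): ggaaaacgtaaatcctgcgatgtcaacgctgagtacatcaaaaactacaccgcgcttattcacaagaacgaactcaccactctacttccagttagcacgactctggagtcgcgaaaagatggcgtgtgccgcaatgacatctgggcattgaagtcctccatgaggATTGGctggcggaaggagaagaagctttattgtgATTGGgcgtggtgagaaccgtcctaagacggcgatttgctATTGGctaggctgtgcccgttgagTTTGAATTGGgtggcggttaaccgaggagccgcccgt
Cdk1, chr10:69352863-69353162 (-): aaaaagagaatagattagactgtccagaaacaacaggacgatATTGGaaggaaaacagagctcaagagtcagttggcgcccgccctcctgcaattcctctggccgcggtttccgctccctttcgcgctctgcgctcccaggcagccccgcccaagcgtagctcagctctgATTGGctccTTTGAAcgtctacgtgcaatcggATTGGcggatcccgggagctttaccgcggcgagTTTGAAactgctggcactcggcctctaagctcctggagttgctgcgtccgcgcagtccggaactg
Kif11, chr19:37376132-37376431 (+): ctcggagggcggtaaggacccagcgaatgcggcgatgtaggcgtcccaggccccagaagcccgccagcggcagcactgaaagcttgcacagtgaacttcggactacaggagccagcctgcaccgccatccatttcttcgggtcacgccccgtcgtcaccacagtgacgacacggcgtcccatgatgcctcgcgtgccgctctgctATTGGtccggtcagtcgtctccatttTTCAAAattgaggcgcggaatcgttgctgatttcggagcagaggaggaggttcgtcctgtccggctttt

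The Top2a promoter held 6 CCAAT boxes, 2 TTTGAA and 2 TTCGAA motifs, that of Cdca8 4 CCAAT and 1 TTTGAA, that of Cdk1 3 CCAAT and 2 TTTGAA, and that of Kif11 1 of each of CCAAT and TTTGAA. In Cdca8 the TTTGAA overlaps an ATTGG by 1 base. Counted from the annotated start, the TTTGAA nearest to it began at base -23 in Top2a, -19 in Kif11, -15 in Cdk1 and 14 in Cdca8. Of the 34 promoters 85.3% held CCAAT, against 37.4% of all 32851 promoters in the table, and 58.8% held it at least 2 times, against 11.7%. TTTGAA or TTCGAA was in 82.4% of the members' promoters, against 19.2% of all, and both kinds of motif were in 76.5%, against 7.52%. Nusap1, Mad2l1 and Birc5 had none of these letters in the window, which says nothing of the factors that bind there. A match is a description of sequence and not a measured site.

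Over the whole course of each culture, tested with limma's moderated F test over the 5 times, 10 of 37 members changed in V449E cells, 7 in FI-Delta cells and 16 in parental cells in GM-CSF. Of all genes 5.74% passed the same test in V449E, 15.7% in FI-Delta and 17.4% in GM-CSF, so the members' shares were 27.0%, 18.9% and 43.2%, and the FI-Delta share was near the background. Top2a, Smc2 and Cdca8 passed in all 3 courses, 21 members passed in at least 1, and 16 passed in none. Tests of whether the course of a member differed between cultures called 0 members for V449E against FI-Delta (limma, 1 at an unadjusted p under 0.05) and 0 for FI-Delta against GM-CSF (4 at an unadjusted p under 0.05). Of all genes 9.78% and 1.6% passed unadjusted. Of all genes 0.994% and 0.0132% passed these tests. Leaving out single RNAs moved the V449E count to 3 without replicate 1 at 12 h and to 4 without replicate 2 at 48 h. It moved to 5 without either replicate at 0 h, replicate 2 at 6 h or replicate 1 at 72 h, and to 6 without replicate 2 at 24 h or at 72 h. The FI-Delta count moved to 3 without either replicate at 12 h, to 4 without replicate 2 at 0 h or replicate 1 at 48 h, to 11 without replicate 2 at 48 h and to 13 without replicate 2 at 6 h. The GM-CSF count stayed between 12 and 19. With print run 1 alone the counts were 3 in V449E and 2 in GM-CSF, and with arrays scaled to one spread and levels weighted by the number of arrays the FI-Delta count was 1 and 26.

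Of the chromosome-structure genes, all 3 measured members passed in V449E and in GM-CSF and 2 of 3 in FI-Delta (all genes 5.74%, 17.4% and 15.7%). Top2a, the DNA topoisomerase that untangles sister chromatids, had the widest range of condition means among the members after Cenpl. Its level in V449E cells was -0.08 and -0.03 at 0 h, -0.26 and -0.37 at 6 h, -1.07 and -0.58 at 12 h, -0.15 and -0.48 at 24 h, 0.17 and 0.30 at 48 h, and 0.32 and 0.21 at 72 h (F test, adjusted p = 0.000266). In FI-Delta cells it was -0.01 and 0.33 at 0 h, 0.03 and -0.30 at 6 h, -0.46 and -0.49 at 12 h, 0.04 and -0.25 at 24 h, 0.15 and 0.11 at 48 h, and -0.05 and 0.24 at 72 h (adjusted p = 0.0165). In parental cells and then GM-CSF it was 0.41 and 0.30 at 0 h, -0.07 and -0.10 at 6 h, -0.27 and -0.15 at 12 h, 0.24 and 0.26 at 24 h, 0.52 and 0.43 at 48 h, and 0.53 and 0.57 at 72 h (adjusted p = 0.00219). In all 3 cultures both 12 h values lay below both 0 h values, and V449E replicate 1 at 12 h was the lowest Top2a level of all. Smc2, the ATPase core of condensin, had levels of -0.12 and -0.11 at 0 h, -0.19 and -0.11 at 6 h, -0.50 and -0.39 at 12 h, -0.02 and -0.32 at 24 h, 0.02 and 0.13 at 48 h, and 0.04 and 0.07 at 72 h in V449E (adjusted p = 0.0311). In FI-Delta they were 0.02 and 0.15 at 0 h, 0.05 and 0.06 at 6 h, -0.26 and -0.29 at 12 h, -0.06 and -0.31 at 24 h, 0.28 and -0.04 at 48 h, and -0.13 and 0.07 at 72 h (adjusted p = 0.0472). In GM-CSF they were 0.23 and 0.26 at 0 h, 0.02 and 0.07 at 6 h, -0.31 and -0.04 at 12 h, 0.18 and 0.16 at 24 h, 0.46 and 0.28 at 48 h, and 0.33 and 0.35 at 72 h (adjusted p = 0.00705). The 12 h pair was below the 0 h pair in each culture, and in V449E the 24 h replicates lay on either side of the 0 h pair. Ncapd2, a regulatory subunit of condensin I, had levels of 0.11 and 0.07 at 0 h, -0.03 and -0.01 at 6 h, -0.16 and -0.16 at 12 h, -0.29 and -0.35 at 24 h, -0.05 and -0.05 at 48 h, and 0.01 and 0.04 at 72 h in V449E (adjusted p = 0.0245), with its lowest pair at 24 h and not at 12 h. In GM-CSF they were 0.32 and 0.11 at 0 h, 0.12 and 0.09 at 6 h, -0.16 and -0.12 at 12 h, -0.08 and -0.02 at 24 h, 0.11 and 0.28 at 48 h, and 0.05 and 0.38 at 72 h (adjusted p = 0.00762). Ncapd2 did not pass in FI-Delta (adjusted p = 0.0628).

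Of the 5 measured cyclins, Cdk1 and partners, 1 passed in V449E, 1 in FI-Delta and 3 in GM-CSF (all genes 5.74%, 15.7% and 17.4%). With so few genes in a role, a count of 1 says little beside these shares. Cdk1, the kinase that drives mitotic entry, had levels of 0.08 and 0.18 at 0 h, 0.07 and 0.01 at 6 h, -0.30 and -0.36 at 12 h, 0.02 and -0.31 at 24 h, 0.11 and -0.02 at 48 h, and -0.22 and -0.06 at 72 h in FI-Delta (adjusted p = 0.0253). In GM-CSF they were 0.22 and 0.34 at 0 h, 0.10 and 0.04 at 6 h, -0.22 and -0.14 at 12 h, 0.24 and 0.21 at 24 h, 0.34 and 0.40 at 48 h, and 0.17 and 0.38 at 72 h (adjusted p = 0.00712). In V449E they were -0.03 and -0.03 at 0 h, -0.18 and -0.19 at 6 h, -0.46 and -0.24 at 12 h, -0.03 and -0.38 at 24 h, 0.04 and 0.12 at 48 h, and 0.06 and 0.05 at 72 h, and the F test just missed the threshold (adjusted p = 0.0501). The 12 h pair lay below the 0 h pair in every culture, and at 24 h in V449E and FI-Delta replicate 1 was near the start while replicate 2 was low. Ccna2, the S and G2 cyclin, had levels of -0.16 and -0.12 at 0 h, -0.25 and -0.33 at 6 h, -0.77 and -0.46 at 12 h, -0.02 and -0.46 at 24 h, 0.07 and 0.19 at 48 h, and 0.05 and 0.03 at 72 h in V449E (adjusted p = 0.0235). In GM-CSF they were 0.24 and 0.43 at 0 h, -0.04 and -0.02 at 6 h, -0.12 and -0.08 at 12 h, 0.25 and 0.17 at 24 h, 0.56 and 0.45 at 48 h, and 0.31 and 0.56 at 72 h (adjusted p = 0.0168). Both pairs at 12 h were well below the start, and in GM-CSF the 48 h pair was above both 0 h values. Cdca3, a trigger of mitotic entry that targets Wee1 for destruction, had levels of 0.18 and 0.46 at 0 h, 0.06 and -0.02 at 6 h, -0.06 and -0.27 at 12 h, 0.08 and 0.09 at 24 h, 0.45 and 0.52 at 48 h, and 0.25 and 0.66 at 72 h in GM-CSF (adjusted p = 0.00614). Replicate 2 of Cdca3 started higher and went lower than replicate 1, so the difference at 12 h was larger in that replicate. Ccnb2, a B-type cyclin, and Cks2, a small Cdk1 partner, passed in no course, with adjusted p from 0.0743 to 0.4.

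None of the 3 mitotic kinases Aurka, Plk1 and Nek2 passed in any course. Plk1, the Polo-like kinase of mitotic entry and cytokinesis, had levels of -0.12 and -0.15 at 0 h, -0.09 and -0.24 at 6 h, -0.30 and -0.0043 at 12 h, -0.04 and -0.26 at 24 h, 0.03 and -0.01 at 48 h, and 0.04 and -0.11 at 72 h in V449E (adjusted p = 0.722). In FI-Delta they were 0.01 and 0.09 at 0 h, 0.06 and -0.18 at 6 h, -0.09 and -0.01 at 12 h, 0.10 and -0.04 at 24 h, 0.12 and 0.06 at 48 h, and 0.0018 and 0.20 at 72 h (adjusted p = 0.652). GM-CSF cultures had 0.03 and 0.11 at 0 h, -0.11 and -0.09 at 6 h, -0.02 and 0.02 at 12 h, 0.08 and 0.15 at 24 h, 0.16 and 0.19 at 48 h, and 0.13 and 0.27 at 72 h (adjusted p = 0.139). In V449E the 12 h replicates lay on either side of the 0 h pair, and in GM-CSF the 6 h pair was below and the 48 and 72 h pairs were above the 0 h pair. The 2 Plk1 probes disagreed at 12 h in V449E, with differences from 0 h of -0.16 and 0.12 on the log2 scale, and neither passed. Of the 4 spindle checkpoint genes, 1 passed in V449E, 1 in FI-Delta and 2 in GM-CSF (all genes 5.74%, 15.7% and 17.4%). Mad2l1, the checkpoint protein that holds Cdc20 inactive, had levels of 0.02 and 0.23 at 0 h, 0.33 and 0.06 at 6 h, -0.42 and -0.36 at 12 h, -0.24 and -0.48 at 24 h, 0.08 and -0.09 at 48 h, and -0.44 and -0.18 at 72 h in FI-Delta (adjusted p = 0.00204, the lowest there among the members). In V449E they were -0.14 and -0.06 at 0 h, -0.02 and -0.05 at 6 h, -0.61 and -0.26 at 12 h, -0.13 and -0.34 at 24 h, 0.02 and 0.20 at 48 h, and 0.16 and -0.02 at 72 h (adjusted p = 0.0348). In FI-Delta both values were below both 0 h values at 12, 24 and 72 h, whereas in V449E they were so at 12 h only. Bub1, the kinase that recruits checkpoint proteins to kinetochores, had levels of 0.47 and 0.29 at 0 h, 0.25 and -0.17 at 6 h, -0.13 and -0.05 at 12 h, 0.20 and 0.27 at 24 h, 0.56 and 0.57 at 48 h, and 0.24 and 0.49 at 72 h in GM-CSF (adjusted p = 0.0336), and its partner Bub1b passed there too (adjusted p = 0.0263). The 48 h pair of Bub1 in GM-CSF lay above the pairs at all other times there, and Ttk, the checkpoint kinase Mps1, passed in no course (lowest adjusted p = 0.17).

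The chromosomal passenger complex holds Aurkb, Birc5, Cdca8 and Incenp. Birc5, Cdca8 and Incenp correlated with the mean of the other members at r of 0.96, 0.93 and 0.85. Aurkb, at -0.20, varied little, and its signal over background is unknown. Cdca8, borealin, which anchors the complex at centromeres, had levels of -0.25 and -0.22 at 0 h, -0.16 and -0.30 at 6 h, -0.63 and -0.47 at 12 h, -0.25 and -0.43 at 24 h, -0.04 and 0.07 at 48 h, and -0.07 and -0.06 at 72 h in V449E (adjusted p = 0.00624). In FI-Delta they were 0.01 and 0.20 at 0 h, 0.09 and 0.02 at 6 h, -0.18 and -0.26 at 12 h, 0.01 and -0.18 at 24 h, 0.30 and 0.14 at 48 h, and -0.16 and 0.07 at 72 h (adjusted p = 0.0191). GM-CSF cultures had 0.25 and 0.27 at 0 h, -0.06 and 0.04 at 6 h, 0.03 and -0.03 at 12 h, 0.26 and 0.27 at 24 h, 0.58 and 0.44 at 48 h, and 0.26 and 0.43 at 72 h (adjusted p = 0.00213). V449E cells were below parental cells already at 0 h, with no overlap, and in GM-CSF the 48 h pair was above all other pairs. Birc5 had levels of 0.28 and 0.37 at 0 h, 0.01 and -0.03 at 6 h, -0.13 and -0.21 at 12 h, 0.13 and 0.18 at 24 h, 0.42 and 0.51 at 48 h, and 0.11 and 0.46 at 72 h in GM-CSF (adjusted p = 0.015), where the 6 and 12 h pairs were below the start. Aurkb had levels of -0.01 and -0.03 at 0 h, 0.08 and 0.0035 at 6 h, 0.06 and -0.03 at 12 h, -0.09 and -0.10 at 24 h, 0.18 and -0.08 at 48 h, and 0.03 and -0.03 at 72 h in V449E (adjusted p = 0.887). In GM-CSF its levels were -0.13 and 0.17 at 0 h, -0.01 and 0.02 at 6 h, 0.14 and 0.14 at 12 h, -0.21 and 0.07 at 24 h, -0.07 and -0.01 at 48 h, and -0.08 and -0.08 at 72 h (adjusted p = 0.378). The Aurkb replicates at parental 0 h lay further apart than the means of any 2 times of that course, and Incenp, the scaffold of the complex, passed in no course (lowest adjusted p = 0.0503). Of the 4 centromere genes, only Cenpe, the kinetochore motor that aligns chromosomes, passed, in GM-CSF (adjusted p = 0.0173, all genes 17.4%). Cenpa, Cenpf and Cenpl passed in no course.

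Of the 6 spindle motors and assembly factors, 3 passed in V449E (Kif11, Tpx2 and Hmmr), 2 in FI-Delta (Kif2c and Nusap1) and 2 in GM-CSF (Kif11 and Hmmr). Of all genes 5.74%, 15.7% and 17.4% passed in the same order. Kif11, the motor that pushes spindle poles apart, had levels of 0.20 and 0.23 at 0 h, 0.02 and 0.06 at 6 h, -0.14 and -0.27 at 12 h, 0.04 and -0.05 at 24 h, 0.37 and 0.35 at 48 h, and 0.15 and 0.42 at 72 h in GM-CSF (adjusted p = 0.00832). Hmmr, a spindle pole protein, had levels of -0.13 and -0.18 at 0 h, -0.08 and -0.15 at 6 h, -0.86 and -0.37 at 12 h, -0.19 and -0.71 at 24 h, 0.01 and 0.20 at 48 h, and 0.07 and 0.17 at 72 h in V449E (adjusted p = 0.0158). Replicate 1 of Hmmr was lowest at 12 h and replicate 2 at 24 h, so the replicates placed the low point at different times. Kif2c, a microtubule depolymerase at kinetochores, had levels of -0.01 and 0.16 at 0 h, 0.24 and 0.10 at 6 h, -0.28 and -0.25 at 12 h, -0.05 and -0.23 at 24 h, 0.03 and -0.05 at 48 h, and -0.24 and -0.02 at 72 h in FI-Delta (adjusted p = 0.0313). Nusap1, which bundles microtubules near chromosomes, had levels of -0.06 and 0.21 at 0 h, 0.46 and 0.12 at 6 h, -0.27 and -0.10 at 12 h, -0.25 and -0.38 at 24 h, 0.26 and 0.01 at 48 h, and -0.22 and 0.03 at 72 h there (adjusted p = 0.0347). Nusap1 replicate 1 was highest at 6 h and replicate 2 at 0 h, and both pairs at 12 and 24 h lay below the 0 h pair. Kif22, a motor on chromosome arms, passed in no course (lowest adjusted p = 0.0563). Among the partners of the anaphase-promoting complex, Ube2c, its E2 enzyme, passed in V449E (adjusted p = 0.0424) and Cdc20 in none (lowest adjusted p = 0.56). Of the 6 cytokinesis genes, 3 passed in GM-CSF (Anln, Kif20a and Kif23), 0 in V449E and 0 in FI-Delta (all genes 17.4%, 5.74% and 15.7%). Anln, anillin, the scaffold of the contractile ring, had levels of 0.13 and 0.16 at 0 h, 0.02 and 0.02 at 6 h, 0.02 and -0.05 at 12 h, 0.14 and 0.17 at 24 h, 0.36 and 0.34 at 48 h, and 0.34 and 0.33 at 72 h in GM-CSF (adjusted p = 0.00158, the lowest there among the members). Its 48 and 72 h pairs lay above its 0 h pair, and its 6 and 12 h pairs below it, but Anln was called at no single time there. Its 2 probes differed in size at the low times, with differences from 0 h of -0.22 and -0.04 at 6 h. At 12 h they were -0.07 and -0.26. Prc1, Racgap1 and Ect2, which organise the midzone and activate RhoA, passed in no course (lowest adjusted p = 0.0844).

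At 12 h, against 0 h of the same culture, 1 member fell in V449E, 7 in FI-Delta and 7 in GM-CSF, and none rose. Top2a fell in all 3, and the condensin genes Smc2 and Ncapd2 fell with Cdk1 in FI-Delta and GM-CSF. Of all genes 0.894% were called lower in V449E, 4.34% in FI-Delta and 2.27% in GM-CSF. The median difference over the members was -0.22 on the log2 scale in V449E (-0.33 and -0.11 in replicates 1 and 2), -0.24 in FI-Delta (-0.19 and -0.29) and -0.20 in GM-CSF (-0.17 and -0.31), while the median over all genes was 0.01, 0.01 and 0.01. In both replicates 26 members were below 0 in V449E (all genes 29.9%), 34 in FI-Delta (all genes 32.2%) and 31 in GM-CSF (all genes 29.3%). At an unadjusted p under 0.05 there were 13 lower members in V449E, 15 in FI-Delta and 16 in GM-CSF (all genes 6.85%, 11.3% and 9.98%), and 0 higher members in each (all genes 5.95%, 9.64% and 8.98%). Called higher were 0.775%, 2.45% and 1.58% of all genes in the same order. These differences come from levels solved over all arrays of a replicate. Within each print run, the median direct log2 ratio of the members in GM-CSF at 12 h over parental cells at 0 h was -0.14 in print run 1 (replicate 1) and -0.26 in print run 2 (replicate 2).

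Top2a was 1.70-fold lower at 12 h than at 0 h in V449E, 1.55-fold in FI-Delta and 1.48-fold in GM-CSF. In V449E the Top2a levels were -1.07 and -0.58 at 12 h, against -0.08 and -0.03 at 0 h, a difference of -0.77 (SE 0.14, adjusted p = 0.00596). In FI-Delta they were -0.46 and -0.49 at 12 h, against -0.01 and 0.33 at 0 h, a difference of -0.63 (SE 0.14, adjusted p = 0.00936). GM-CSF cultures had -0.27 and -0.15 at 12 h, against 0.41 and 0.30 at 0 h, a difference of -0.56 (SE 0.14, adjusted p = 0.0306). The 12 h and 0 h values did not overlap in any of the 3. Cdk1 fell in FI-Delta by 0.46 (SE 0.11, adjusted p = 0.0111) and in GM-CSF by 0.46 (SE 0.11, adjusted p = 0.019) on the log2 scale. Smc2 fell by 0.36 (SE 0.11, adjusted p = 0.0487) and 0.42 (SE 0.11, adjusted p = 0.0337) in the same order. Tested one by one with limma, 1 of its 2 probes passed in each. Their adjusted p was 0.0382 and 0.148 in FI-Delta and 0.0125 and 0.162 in GM-CSF. Ncapd2 fell by 0.28 (SE 0.08, adjusted p = 0.0407) in FI-Delta and 0.35 (SE 0.08, adjusted p = 0.019) in GM-CSF. These 4 genes, Cdk1, Smc2, Ncapd2 and Top2a, were 57.1% of the 7 FI-Delta calls and 57.1% of the 7 GM-CSF calls. The 2 comparisons share no RNA, but their levels were solved from 1 set of arrays.

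The other FI-Delta calls at 12 h were Mad2l1, Kif2c and Cdca8. Mad2l1 had levels of -0.42 and -0.36 at 12 h, against 0.02 and 0.23 at 0 h, and fell by 0.52 (SE 0.12, adjusted p = 0.0122) on the log2 scale. Kif2c had -0.28 and -0.25 at 12 h, against -0.01 and 0.16 at 0 h, and fell by 0.34 (SE 0.10, adjusted p = 0.0485). Cdca8 had -0.18 and -0.26 at 12 h, against 0.01 and 0.20 at 0 h, and fell by 0.33 (SE 0.09, adjusted p = 0.0365). None of these pairs overlapped. The other GM-CSF calls at 12 h were Birc5, Cdca3 and Kif11. Birc5 had levels of -0.13 and -0.21 at 12 h, against 0.28 and 0.37 at 0 h, and fell by 0.49 (SE 0.14, adjusted p = 0.0455) on the log2 scale. Cdca3 had -0.06 and -0.27 at 12 h, against 0.18 and 0.46 at 0 h, and fell by 0.48 (SE 0.14, adjusted p = 0.0471). Kif11 had -0.14 and -0.27 at 12 h, against 0.20 and 0.23 at 0 h, and fell by 0.42 (SE 0.12, adjusted p = 0.0417). Their pairs did not overlap either, and none of the 3 passed in FI-Delta, where the differences were -0.43, -0.41 and -0.37. The responses of FI-Delta and GM-CSF at 12 h differed for 0 members (limma, 0 at an unadjusted p under 0.05), with 0% of all genes called and 2.23% passing unadjusted. Plk1 was at -0.02 in V449E, -0.10 in FI-Delta and -0.07 in GM-CSF, and Aurkb at 0.04, 0.07 and 0.12, none of them called. The values of Plk1 average 2 probes that differed: -0.16 and 0.12 in V449E, -0.19 and -0.0011 in FI-Delta, and -0.17 and 0.03 in GM-CSF.

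The calls at 12 h depended on single RNAs. The FI-Delta count of 7 became 4 without replicate 1 at 0 h, 0 without replicate 2 at 0 h, 3 without replicate 1 at 12 h and 0 without replicate 2 at 12 h. The GM-CSF count of 7 became 0 without replicate 1 at 12 h, 3 without replicate 2 at 12 h, 0 without parental replicate 1 and 1 without parental replicate 2. The V449E call of Top2a was lost without either 0 h replicate or replicate 1 at 12 h. No called member turned its sign, and the median difference of the members stayed between -0.31 and -0.19 in FI-Delta, -0.26 and -0.18 in GM-CSF, and -0.35 and -0.10 in V449E. With arrays scaled to one spread the counts were 3 in FI-Delta and 2 in GM-CSF, with levels weighted by the number of arrays the FI-Delta count was 14, and with print run 1 alone the GM-CSF count was 2.

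**Figure D3:**
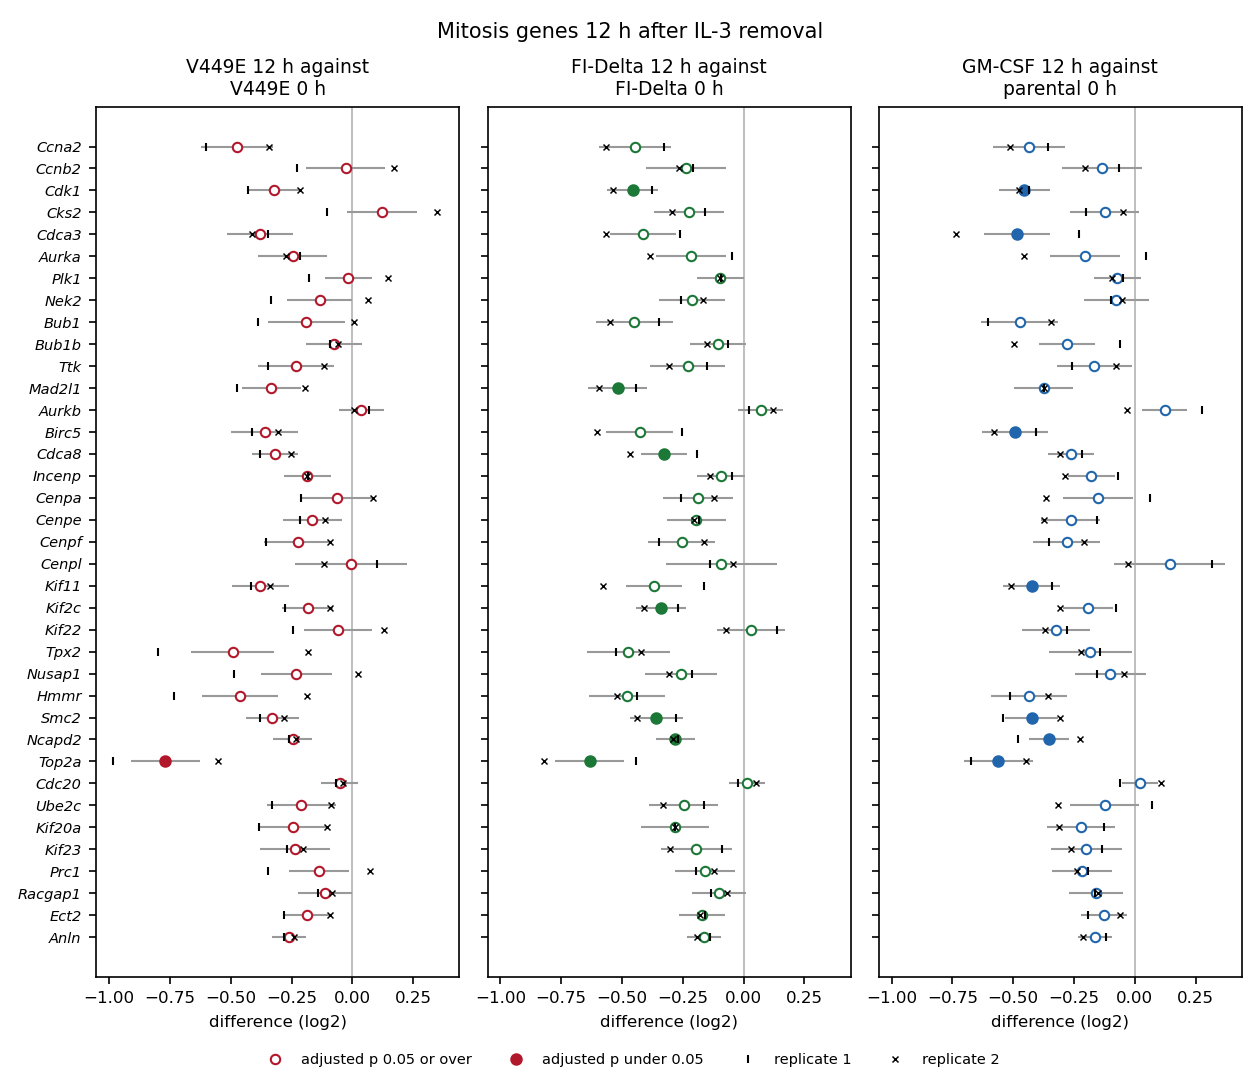
Difference of each measured mitosis gene at 12 h against 0 h (log2, circles with their standard error as bars, filled where the adjusted p was under 0.05, with ticks for replicate 1 and crosses for replicate 2), in V449E, FI-Delta and GM-CSF cultures. Most circles lie left of 0 in each panel, and Top2a is filled in all 3.

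Other genes of the same pathways, from lists chosen for their role, were counted at 12 h. Of all genes 0.894%, 4.34% and 2.27% were called lower in V449E, FI-Delta and GM-CSF, and 0.775%, 2.45% and 1.58% higher. At an unadjusted p under 0.05 6.85%, 11.3% and 9.98% were lower and 5.95%, 9.64% and 8.98% higher. A count of 1 in a short list says little beside these shares. Of 57 further mitosis genes 3 fell in V449E, 15 in FI-Delta and 13 in GM-CSF, with medians of -0.17, -0.23 and -0.21 on the log2 scale. Pbk, a mitotic kinase, fell in all 3, by 0.76 (SE 0.16, adjusted p = 0.0131) in V449E, 0.59 (SE 0.16, adjusted p = 0.0257) in FI-Delta and 0.58 (SE 0.16, adjusted p = 0.0414) in GM-CSF. Tuba1b, an alpha tubulin, fell by 0.74 (SE 0.17, adjusted p = 0.0103) in FI-Delta and 0.67 (SE 0.17, adjusted p = 0.0291) in GM-CSF, and Lmnb1, lamin B1, by 0.46 (SE 0.09, adjusted p = 0.00703) in V449E. Of 7 cohesin genes 0 fell in V449E, 2 in FI-Delta and 3 in GM-CSF, led by Smc3, a core subunit, at -0.41 (SE 0.10, adjusted p = 0.0159) and -0.55 (SE 0.10, adjusted p = 0.00487). Of 16 transcriptional regulators 1 rose in V449E, the pocket protein Rbl2 at 0.41 (SE 0.10, adjusted p = 0.0483), while in FI-Delta 2 fell and in GM-CSF 1 fell. These were Lin9 at -0.42 (SE 0.10, adjusted p = 0.0164) and E2f4 at -0.28 (SE 0.07, adjusted p = 0.0181) in FI-Delta, and E2f4 at -0.25 (SE 0.07, adjusted p = 0.0446) in GM-CSF. Rbl2, E2f4 and Lin9 are subunits of the DREAM complex. Of 11 measured subunits and regulators of the anaphase-promoting complex 0 were called (limma), and 1 was lower in V449E, 3 in FI-Delta and 2 in GM-CSF at an unadjusted p under 0.05. Markers of cell types were counted beside these. Of 17 granulocyte markers 0 were called in V449E (2 higher and 1 lower at an unadjusted p under 0.05), 0 in FI-Delta (1 higher) and 1 in GM-CSF, Elane at -1.26 (SE 0.34, adjusted p = 0.0389), with medians of 0.0042, 0.29 and -0.47. Of 18 macrophage markers 0 were called in V449E (7 higher and 1 lower at an unadjusted p under 0.05), 1 higher in FI-Delta, Lamp1 at 0.36 (SE 0.09, adjusted p = 0.0227), and 1 lower in GM-CSF, Cybb at -0.96 (SE 0.26, adjusted p = 0.0414), with medians of 0.17, 0.21 and 0.10. Their part in the members' differences was not tested.

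After 12 h few members passed at single times. At 24 h 1 member fell in V449E, 1 in FI-Delta and 0 in GM-CSF (limma), with 4, 14 and 1 lower and 0 higher at an unadjusted p under 0.05. Of all genes 1.50%, 2.01% and 1.46% were called in these comparisons in the same order, and 11.9%, 13.3% and 11.0% passed unadjusted, in either direction. Ncapd2 in V449E had levels of -0.29 and -0.35 at 24 h, against 0.11 and 0.07 at 0 h, and fell by 0.41 (SE 0.08, adjusted p = 0.0171) on the log2 scale, with 0.676% of all genes called lower. Mad2l1 in FI-Delta had -0.24 and -0.48 at 24 h, against 0.02 and 0.23 at 0 h, and fell by 0.49 (SE 0.12, adjusted p = 0.0353) on the same scale, with 0.702% of all genes called lower. Neither pair overlapped, but the 24 h replicates differed across the members: the median difference was -0.03 and -0.30 in V449E replicates 1 and 2 and -0.05 and -0.41 in FI-Delta. The Ncapd2 call was lost without any 1 of its 4 RNAs, and the Mad2l1 call without either 0 h replicate or 24 h replicate 2. At 48 h no member was called in any culture (limma), with 1 higher in V449E, 0 in FI-Delta and 6 in GM-CSF at an unadjusted p under 0.05 and 0 lower in each. Of all genes 0.00662%, 5.35% and 1.58% were called in these comparisons in the same order, and 6.61%, 16.6% and 11.0% passed unadjusted, in either direction. The median difference at 48 h was 0.13 in V449E and 0.15 in GM-CSF, where 28 members each were above 0 in both replicates (all genes 27.3% and 31.1%), and 0.04 in FI-Delta, where 4 were (all genes 31.6%).

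At 72 h, 3 members were lower than at 0 h in FI-Delta (all genes called lower 10.7%, so the count is near the background), and none was called in V449E or GM-CSF (limma, 1 and 2 higher and 0 lower at an unadjusted p under 0.05). Of all genes 0% and 7.23% were called in these comparisons in the same order, and 4.34% and 18.9% passed unadjusted, in either direction. Bub1 in FI-Delta had levels of -0.50 and -0.20 at 72 h, against 0.06 and 0.21 at 0 h, and fell by 0.49 (SE 0.16, adjusted p = 0.0348) on the log2 scale. Mad2l1 had -0.44 and -0.18 at 72 h, against 0.02 and 0.23 at 0 h, and fell by 0.44 (SE 0.12, adjusted p = 0.0132). Nek2, a centrosome kinase, had -0.39 and -0.17 at 72 h, against 0.07 and 0.20 at 0 h, and fell by 0.42 (SE 0.13, adjusted p = 0.0311). The 72 h and 0 h values of these 3 genes did not overlap, and replicate 1 was the lower at 72 h each time. The median difference over the members at 72 h was -0.13 in FI-Delta, 0.09 in V449E and 0.10 in GM-CSF. The FI-Delta count of 3 became 2 without replicate 1 at 0 h, 0 without replicate 2 at 0 h, 0 without replicate 1 at 72 h and 4 without replicate 2 at 72 h. Between 24 h and 72 h no member was called in any culture (limma), and at an unadjusted p under 0.05 there were 18 higher at 72 h in V449E, 0 in FI-Delta and 13 in GM-CSF, with 0 lower in each (all genes 5.47%, 5.96% and 7.58%). Of all genes 0.0199%, 3.64% and 4.15% were called in these comparisons in the same order, and 10.9%, 17.3% and 18.3% passed unadjusted, in either direction. The members' median change from 24 h to 72 h was 0.10 and 0.40 in V449E replicates 1 and 2. It was -0.09 and 0.25 in FI-Delta, of opposite sign, and 0.11 and 0.26 in GM-CSF. At 6 h no member was called in any culture (limma), with 0 lower and 1 higher in V449E, 1 lower in FI-Delta and 6 lower in GM-CSF at an unadjusted p under 0.05. Of all genes 1.04%, 1.22% and 0.590% were called in these comparisons in the same order, and 9.22%, 10.9% and 11.9% passed unadjusted, in either direction. Beside the 72 h values, of 18 macrophage markers 0 were called in V449E (5 higher at an unadjusted p under 0.05), 10 were higher in FI-Delta and 11 in GM-CSF. Of 17 granulocyte markers 0 were called in V449E (0 at an unadjusted p under 0.05), 6 were higher in FI-Delta and 3 in GM-CSF. Of all genes 7.85% were called higher in FI-Delta and 3.82% in GM-CSF, where 3.41% were called lower. Of 11 mast cell and basophil markers 0 were called in V449E (0 at an unadjusted p under 0.05), while 4 were lower in FI-Delta and 4 in GM-CSF. Cpa3, the mast cell protease, differed by -2.87 (SE 0.24, adjusted p = 1.09e-07) in FI-Delta and -1.70 (SE 0.24, adjusted p = 0.000144) in GM-CSF, and Gata2 by -1.15 and -1.23 in the same order. Of 9 erythroid and megakaryocyte markers 0 were called in V449E (1 lower at an unadjusted p under 0.05), 1 was higher and 1 lower in FI-Delta, and 1 was higher and 2 lower in GM-CSF. Itga2b, the megakaryocyte integrin, was among those lower, differing by -1.15 in FI-Delta and -0.89 in GM-CSF. The marker called higher in each culture went the other way, so this list did not move in 1 direction. Of 8 lymphoid markers 0 were called in V449E (1 lower at an unadjusted p under 0.05), 1 was higher and 1 lower in FI-Delta, and 0 were called in GM-CSF (1 higher and 1 lower at an unadjusted p under 0.05). The markers' part in the members' values was not tested.

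At 0 h, while still in IL-3, most members were measured lower in V449E cells than in parental cells, although only 1 was called lower (all genes 0.351%) and 1 higher (all genes 0.583%). The median difference was -0.25 on the log2 scale (-0.26 in replicate 1 and -0.26 in replicate 2), 33 members were below 0 in both replicates (all genes 30.8%), and 20 were lower at an unadjusted p under 0.05 (all genes 5.35%). Cdca8 had levels of -0.25 and -0.22 in V449E, against 0.25 and 0.27 in parental cells, a difference of -0.49 (SE 0.09, adjusted p = 0.0103). Cenpl went the other way, with 0.54 and 0.57 in V449E, against -0.84 and -0.34 in parental cells, a difference of 1.15 (SE 0.23, adjusted p = 0.0141), or 2.21-fold higher. Neither pair overlapped. This comparison was hybridised in both print runs for both replicates, which allows the direct ratios to be set side by side. For Cenpl the direct log2 ratio of V449E over parental cells was 1.71 and 1.79 in replicates 1 and 2 in print run 1, and 0.38 and 0.19 in print run 2. For Cdca8 it was -0.50 and -0.77 in print run 1, and -0.53 and -0.14 in print run 2. Over all members the median direct ratio was -0.32 and -0.32 in print run 1, with 33 and 34 of 37 below 0, and -0.18 and -0.12 in print run 2, with 32 and 29 below 0. The sign of both genes and of the medians was the same in both print runs, and the size of the Cenpl ratio was not.

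**Figure D4:**
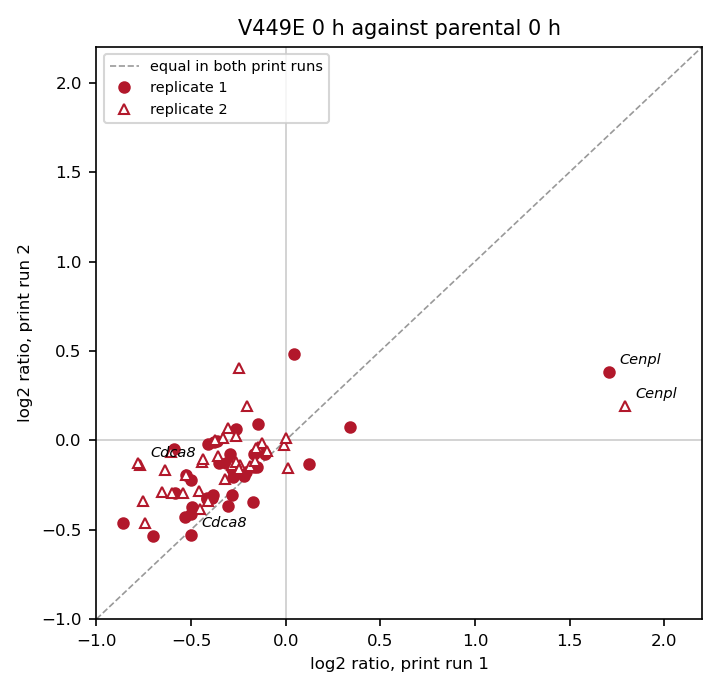
Direct log2 ratio of V449E over parental cells at 0 h for each measured mitosis gene in print run 2 (vertical) against print run 1 (horizontal), circles for replicate 1 and triangles for replicate 2, with a dashed line where both runs would be equal. Both Cenpl points lie far right of the line, at 1.71 and 1.79 in print run 1 against 0.38 and 0.19 in print run 2.

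Other RNAs moved with this comparison, in which 0.351% of all genes were called lower in V449E and 0.583% higher. Of 17 granulocyte markers 5 were lower in V449E cells than in parental cells at 0 h (median -0.83), of 18 macrophage markers 2 were higher (median 0.25) and of 11 mast cell and basophil markers 1 was higher (median 0.14). S100a9 and S100a8, calgranulins of maturing granulocytes, differed by -2.56 (SE 0.49, adjusted p = 0.0102) and -2.41 (SE 0.44, adjusted p = 0.00703), and Cd68, a macrophage lysosomal glycoprotein, by 0.89 (SE 0.15, adjusted p = 0.00346). The part of other cell types in the members' difference was not tested. No summed marker level was formed, because the values are ratios. Of 47 genes of G1/S and DNA replication 3 were lower in V449E (median -0.21), Cdc45 at -0.64 (SE 0.13, adjusted p = 0.0123), Rfc3 at -0.52 (SE 0.11, adjusted p = 0.0222) and Rfc4 at -0.47 (SE 0.11, adjusted p = 0.0348). Of 57 further mitosis genes 1 was, Lmnb1 at -0.52 (SE 0.09, adjusted p = 0.00333) (median -0.24). Against parental cells at 0 h, FI-Delta had 0 members called (limma, 1 higher and 0 lower at an unadjusted p under 0.05, median -0.11), and V449E against FI-Delta at 0 h had 0 (1 higher and 2 lower at an unadjusted p under 0.05, median -0.18). Of all genes 0.126% and 0.311% were called in these comparisons in the same order, and 3.69% and 6.15% passed unadjusted, in either direction. The V449E count of 2 became 1 without parental replicate 1, 1 without parental replicate 2, and 0 without either V449E replicate, while the median stayed between -0.29 and -0.22. With levels weighted by the number of arrays the count was 23, and with print run 1 alone it was 4.

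At matched times, the growing V449E line and the differentiating FI-Delta line differed for 4 members by the F test over the 5 times, Cenpl (adjusted p = 0.00121), Cdca8 (0.00512), Kif23 (0.0122) and Anln (0.0177). That is 10.8% of the members, against 17.9% of all genes, and the count became 7 without V449E replicate 2 at 12 h. Cenpl had levels of 0.54 and 0.57 at 0 h, 0.86 and 0.57 at 6 h, 0.64 and 0.46 at 12 h, 0.42 and 0.33 at 24 h, 0.94 and 0.60 at 48 h, and 0.87 and 0.38 at 72 h in V449E. In FI-Delta they were 0.10 and -0.20 at 0 h, -0.11 and -0.14 at 6 h, -0.04 and -0.24 at 12 h, 0.12 and -0.20 at 24 h, -0.11 and -0.07 at 48 h, and 0.37 and -0.09 at 72 h. Both V449E values were above both FI-Delta values at every time, and the arrays that set these lines against each other directly lay in print run 1. Kif23, the motor of the central spindle, had levels of -0.32 and -0.15 at 0 h, -0.16 and -0.10 at 6 h, -0.59 and -0.35 at 12 h, -0.31 and -0.65 at 24 h, -0.26 and 0.07 at 48 h, and -0.20 and -0.15 at 72 h in V449E. In FI-Delta they were -0.02 and 0.13 at 0 h, 0.46 and -0.01 at 6 h, -0.11 and -0.17 at 12 h, 0.04 and -0.28 at 24 h, 0.42 and 0.16 at 48 h, and -0.01 and 0.26 at 72 h. Both V449E values of Kif23 were below both FI-Delta values at every time. At single times 1 member was called at 48 h and 1 at 72 h, and none at 6, 12 or 24 h (limma, 10, 4 and 6 lower and 1, 1 and 0 higher at an unadjusted p under 0.05). Of all genes 1.06%, 1.46% and 3.80% were called there in either direction. At an unadjusted p under 0.05 4.74%, 5.83% and 8.41% of all genes were lower and 4.40%, 5.14% and 6.64% higher. At 48 h Cenpl was higher in V449E by 0.86 (SE 0.23, adjusted p = 0.0162), with 4.10% of all genes called higher. At 72 h Mad2l1 had levels of 0.16 and -0.02 in V449E, against -0.44 and -0.18 in FI-Delta, a difference of 0.38 (SE 0.12, adjusted p = 0.0288), with 10.8% of all genes called higher. The Mad2l1 pairs did not overlap, and the difference was larger in replicate 1. The 48 h count became 0 without V449E replicate 1 or without either FI-Delta replicate, and the Mad2l1 call was lost without replicate 1 of either line at 72 h.

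The change from 0 h to 72 h itself was compared between these lines, and for Mad2l1 it differed by 0.61 (SE 0.17, adjusted p = 0.0453), higher in V449E in both replicates (all genes called higher 2.64%). This 1 call is 2.7% of the members, so the count is near the background. Mad2l1 differed from 0 h at 72 h by 0.17 in V449E and by -0.44 in FI-Delta. The median of this difference of responses over the members was 0.17, and 27 members were above 0 in both replicates (all genes 37.7%), while 1 passed and 6 were higher at an unadjusted p under 0.05 (all genes 11.2%). Left out in turn, 5 of the 8 RNAs took the adjusted p over the threshold: both V449E replicates at 0 h, V449E replicate 1 at 72 h, FI-Delta replicate 2 at 0 h and FI-Delta replicate 1 at 72 h. Over all 8 it ran from 0.0324 to 0.237 and the difference from 0.47 to 0.74.

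Markers of maturing cells differed widely in the same comparison of V449E with FI-Delta. At 72 h 11 of 17 granulocyte markers were lower in V449E (median -1.44), as were 9 of 18 macrophage markers, while 1 macrophage marker was higher (median -0.34). In V449E 4 of 11 mast cell and basophil markers were higher (median 0.19). Of all genes 8.86% were called lower and 10.8% higher there. Ltf, lactoferrin of granulocyte granules, differed by -4.06 (SE 0.61, adjusted p = 4.46e-05), Cybb, the phagocyte oxidase subunit, by -2.01 (SE 0.26, adjusted p = 7.72e-06) and Cpa3 by 3.02 (SE 0.24, adjusted p = 1.28e-08). Of 9 erythroid and megakaryocyte markers 2 were higher and 1 lower, and of 8 lymphoid markers 1 was higher. With so few markers in these lists, such small counts say little beside those shares. At 48 h 12 granulocyte markers (median -1.76) and 5 macrophage markers (median -0.25) were lower, with 5.54% of all genes called lower. Then 4 mast cell and basophil and 2 erythroid and megakaryocyte markers were higher, with 4.10% of all genes called higher. At 48 h 0 of the 8 lymphoid markers were called (limma, 1 lower at an unadjusted p under 0.05). Their part in the differences of Cenpl and Mad2l1 was not tested.

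FI-Delta cells and parental cells in GM-CSF, the 2 differentiating cultures, differed for 9 members over the 5 matched times, or 24.3%, against 5.99% of all genes: Mad2l1 (F test, adjusted p = 0.00119), Anln (0.00235), Cdca8 (0.00385), Bub1 (0.00471), Cdk1 (0.00851), Kif2c (0.0104), Kif20a (0.0139), Smc2 (0.0333) and Top2a (0.046). The count became 5 without FI-Delta replicate 1 at 72 h and lay between 6 and 13 without each other RNA. It was 3 with print run 1 alone and 14 without the replicate block. At 72 h 6 members were lower in FI-Delta (all genes called lower 0.616%) and none was higher (all genes 0.590%). The median difference at 72 h was -0.35 (-0.35 in replicate 1 and -0.31 in replicate 2). The median direct ratio was -0.32 in print run 1 (replicate 1) and -0.31 in print run 2 (replicate 2). In all, 33 members were below 0 in both replicates (all genes 33.0%), and 27 were lower at an unadjusted p under 0.05 (all genes 7.83%). The median over all genes was -0.01.

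Bub1 had levels of -0.50 and -0.20 in FI-Delta, against 0.24 and 0.49 in GM-CSF, a difference of -0.72 (SE 0.16, adjusted p = 0.0271). Kif20a, the motor that carries passengers to the midzone, had levels of -0.32 and 0.01 in FI-Delta, against 0.29 and 0.56 in GM-CSF, a difference of -0.58 (SE 0.14, adjusted p = 0.0406). Mad2l1 had levels of -0.44 and -0.18 in FI-Delta, against 0.14 and 0.29 in GM-CSF, a difference of -0.52 (SE 0.12, adjusted p = 0.0348). Both spindle checkpoint genes and Kif20a had every FI-Delta value below every GM-CSF value, with GM-CSF replicate 2 the highest. Kif2c had levels of -0.24 and -0.02 in FI-Delta, against 0.25 and 0.38 in GM-CSF, a difference of -0.45 (SE 0.10, adjusted p = 0.0341). Cdca8 had levels of -0.16 and 0.07 in FI-Delta, against 0.26 and 0.43 in GM-CSF, a difference of -0.39 (SE 0.09, adjusted p = 0.0429). Anln had levels of -0.08 and 0.04 in FI-Delta, against 0.34 and 0.33 in GM-CSF, a difference of -0.35 (SE 0.07, adjusted p = 0.0128). These 3 did not overlap either, and the GM-CSF replicates of Anln were nearly equal. The 2 Anln probes, tested one by one with limma, differed by -0.35 and -0.36 (adjusted p = 0.0487 and 0.0549). Top2a had -0.05 and 0.24 in FI-Delta, against 0.53 and 0.57 in GM-CSF, and Cdk1 -0.22 and -0.06, against 0.17 and 0.38. Their differences of -0.45 (SE 0.14, adjusted p = 0.128) and -0.41 (SE 0.11, adjusted p = 0.0535) were not called. Aurkb was at 0.13, Plk1 at -0.10 and Cenpl at 0.59, none called. The direct log2 Cenpl ratio was 0.87 in print run 1 (replicate 1) and 0.13 in print run 2 (replicate 2). The Plk1 value averages 2 probes of opposite sign, at -0.33 and 0.12. The 72 h count of 6 became 0 without FI-Delta replicate 1, 7 without FI-Delta replicate 2, 8 without GM-CSF replicate 1 and 0 without GM-CSF replicate 2, and the median lay between -0.44 and -0.24. It became 1 with arrays scaled to one spread, 1 with levels weighted by the number of arrays and 1 with print run 1 alone. At 24 h and 48 h no member was called (limma), but 17 and 16 were lower and 0 and 1 higher at an unadjusted p under 0.05 (all genes 6.02% and 5.22% lower), with medians of -0.25 and -0.24. At 6 h and 12 h none was called either (limma, 0 and 4 lower and 1 and 0 higher at an unadjusted p under 0.05), with medians of 0.04 and -0.10. Of all genes 0.702%, 0.424%, 0.219% and 0.397% were called at 6, 12, 24 and 48 h, and 8.71%, 8.45%, 11.0% and 10.3% passed unadjusted, in either direction. The 72 h responses of FI-Delta and GM-CSF, each against its own 0 h, differed for 0 members (limma, 4 lower and 0 higher at an unadjusted p under 0.05), with 0.00662% of all genes called and 3.95% passing unadjusted.

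**Figure D5:**
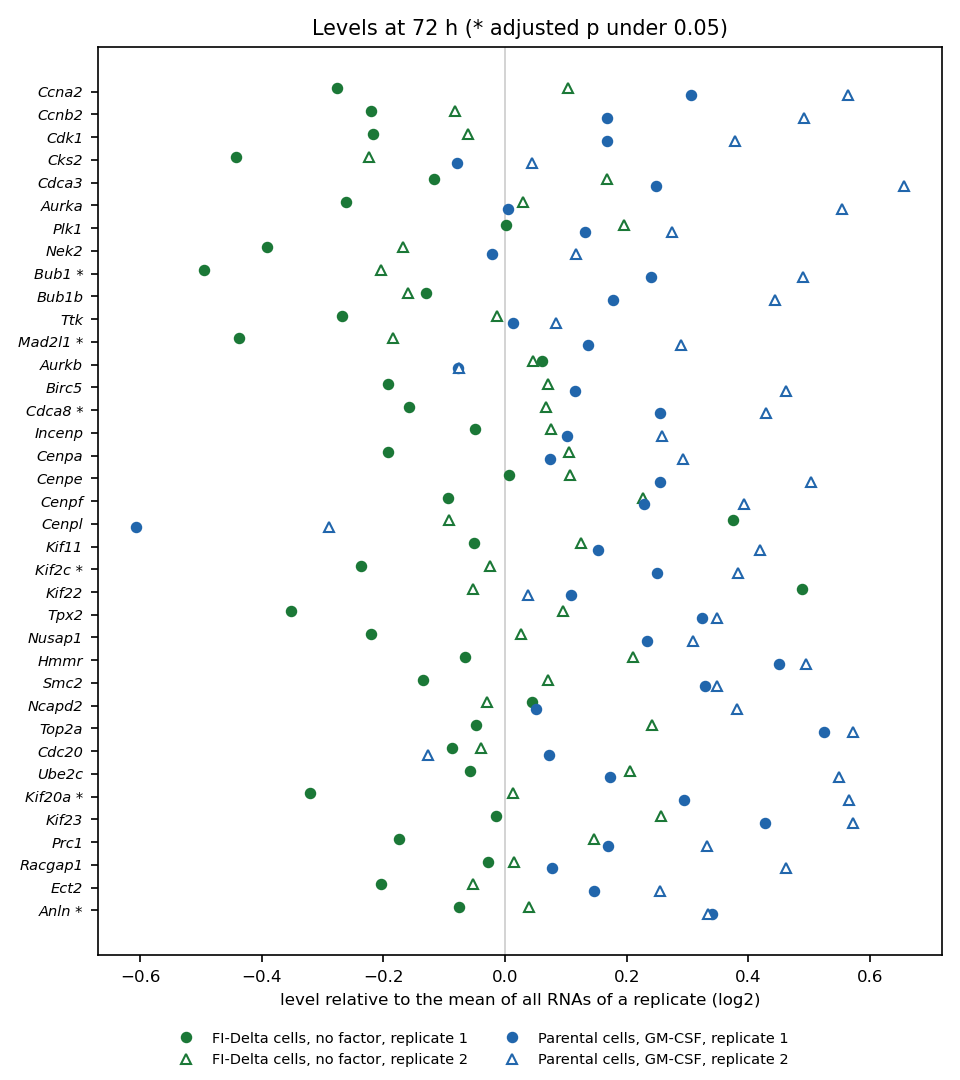
Levels of the measured mitosis genes at 72 h (log2, relative to the mean of a replicate's RNAs) in FI-Delta cells without factor and in parental cells in GM-CSF, circles for replicate 1 and triangles for replicate 2, with an asterisk at the 6 genes called. The FI-Delta points lie left of the GM-CSF points for most genes, and Cenpl lies the other way.

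Alongside this comparison, of 18 macrophage markers 1 was higher in FI-Delta than in GM-CSF at 72 h, the Fc receptor Fcgr3 at 0.56 (SE 0.11, adjusted p = 0.0162), and the median of the list was 0.21. Of 17 granulocyte markers 0 were called (limma, 7 higher and 0 lower at an unadjusted p under 0.05, median 0.36), and of 11 mast cell and basophil markers 1 was lower, the mast cell protease Cpa3 at -1.27 (SE 0.24, adjusted p = 0.00962). Of 9 erythroid and megakaryocyte and 8 lymphoid markers 0 were called (2 higher and 2 lower at an unadjusted p under 0.05 in all), with medians of 0.05 and 0.0031. The part of other cell types in the members' difference was not tested. Of 47 genes of G1/S and DNA replication 7 were lower in FI-Delta (median -0.23), led by Mcm6, a subunit of the replicative helicase, at -0.89 (SE 0.15, adjusted p = 0.00421). Of 57 further mitosis genes 10 were lower (median -0.26), led by Pbk at -0.64 (SE 0.16, adjusted p = 0.0464), Cep55 at -0.60 (SE 0.12, adjusted p = 0.0187) and Tubb5 at -0.58 (SE 0.14, adjusted p = 0.048). Of 19 cell cycle exit genes 1 was higher, the antiproliferative Btg2 at 0.58 (SE 0.12, adjusted p = 0.0186). In the same comparison 0.616% of all genes were called lower and 0.590% higher.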

How the data were processed

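Normalised log2 ratios of 116 arrays were deposited by the authors for 23040 spots. Per the labels, spots of both print runs were put in 1 order after normalisation, and per the submitters' processing notes limma was used, with no version given. The normalisation method and background correction are not given in the sources used here, and the log base and Cy5 over Cy3 are inferred as above. Dye-swapped arrays of a pair correlated at -0.653 to -0.0327 over all probes, all 58 negatively. The ratio of the swapped array was turned, by the dyes the labels give, before the pair was averaged.

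After 1243 control spots were left out, 21797 probes remained, of which 16651 named 1 symbol, 137 several and 5009 none. Symbols came from the platform annotation, updated by Entrez identifiers. Levels were solved by least squares from the pair averages, within each replicate number because every array holds RNAs of 1 number, so pairing by replicate is inherent and the replicate is a block. Conditions rested on 8 to 32 arrays. Probes of a symbol were averaged, and limma 3.58.1 in R 4.3.3 (lmFit, eBayes, 17 residual and 5.57 prior degrees of freedom) tested all 15097 symbols with the 36 RNAs sharing 1 estimate of the spread, with Benjamini-Hochberg adjustment over them. This fit took the levels as independent and equally precise, although they share arrays and rest on unequal numbers of arrays. The standard errors and p values rest on that. The fitting code was tested on simulated data.

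The labels do not say that replicates were separate cultures, so the tests cover no more than the variation among these RNAs, which may be technical. The members, gene lists and alternatives were chosen with earlier results of these data known. Named with values were the 6 members of lowest p in each time course, up to 5 called members of largest difference per comparison and direction, and Ccnb1 (not measured), Cdk1, Plk1, Aurkb, Bub1 and Top2a whatever their values. Of other lists up to 3 called genes per comparison were named, together with the 10 genes most like the members' mean. Alternatives were scaled arrays, weights by number of arrays, no replicate block, print run 1 only, single probes, robust eBayes and each RNA left out.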

Additional observations from a re-analysis of the deposited data

Results flagged for a closer look

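On 1 array in each of 2 comparisons the median log2 ratio of the members lay apart from the other 3 arrays of that comparison by Dixon's test. For FI-Delta 12 h against GM-CSF 12 h, replicate 2 in print run 2 with FI-Delta in Cy3, it was -0.0780, while the others lay between -0.1003 and -0.0986. For GM-CSF 6 h against parental 0 h, replicate 1 in print run 1 with GM-CSF in Cy5, it was -0.1154, while the others lay between -0.2086 and -0.1961. Both kept the sign of the other arrays. Of the 28 comparisons tested, chance picks about 1 in 20.

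The response of Mad2l1 at 72 h differed between the lines by a test of the difference itself: V449E minus FI-Delta was 0.6088 on the log2 scale (limma, adjusted p = 0.0453), with 0.76 in replicate 1 and 0.46 in replicate 2. This test called 2.7% of the members higher, against 2.64% of all genes, so the count is near the background. The call was lost with 5 of the 8 RNAs left out in turn.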

How the results depend on the processing

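Of the 36 results with a sign, the 31 called differences of single members and 5 medians, 0 of 364 values under other settings turned direction. Counts have no direction. Of the 31 single-time calls, 31 were kept without the replicate block, 31 with robust eBayes, 28 with probes tested one by one, 25 with weights by the number of arrays, 14 with print run 1 only and 11 with arrays scaled to one spread, and 0 survived every left-out RNA. With probes tested one by one, a call counted as kept if any probe of the gene passed. The cause of these moves was not tested, except that print run 1 only leaves fewer RNAs. With arrays scaled, single-time calls numbered 11, FI-Delta at 12 h had 3, FI-Delta against GM-CSF at 72 h 1, GM-CSF at 12 h 2 and the FI-Delta course 1, and the median of V449E against parental cells was -0.26. With weights, single-time calls numbered 63, FI-Delta at 12 h had 14, FI-Delta against GM-CSF at 72 h 1, V449E against FI-Delta at 0 h 3, V449E against parental cells 23 and the FI-Delta course 26. With print run 1 only, the count was 1 for FI-Delta against parental cells, FI-Delta against GM-CSF at 72 h, V449E against FI-Delta at 0 h and V449E at 72 h against 24 h, 2 for GM-CSF at 12 h and for the GM-CSF course, 3 for the V449E course and for FI-Delta against GM-CSF over matched times, and 4 for V449E against parental cells. Medians were then -0.24 for FI-Delta against GM-CSF at 72 h and -0.32 for V449E against parental cells. Without the replicate block, 11 members changed over the FI-Delta course and 14 differed between FI-Delta and GM-CSF over matched times, and no other result that answers a comparison moved. Leaving out 1 RNA at a time gave medians of -0.31 to -0.19 for FI-Delta at 12 h, -0.44 to -0.24 for FI-Delta against GM-CSF at 72 h, -0.26 to -0.18 for GM-CSF at 12 h, -0.29 to -0.22 for V449E against parental cells and -0.35 to -0.10 for V449E at 12 h. It gave 18 (without FI-Delta 0 h replicate 2) to 39 (without GM-CSF 72 h replicate 1) single-time calls, 0 to 4 for FI-Delta at 12 h, 0 to 8 for FI-Delta against GM-CSF at 72 h, 0 to 3 for GM-CSF at 12 h and for GM-CSF at 72 h against 24 h, and 0 to 1 for V449E against parental cells. The courses had 3 to 13 in FI-Delta, 3 to 10 in V449E and 12 to 19 in GM-CSF, and matched times 5 to 13 for FI-Delta against GM-CSF and 4 to 7 for V449E against FI-Delta. Signal over background is unknown, so a member that varied little cannot be told from one near background.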

Other observations

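Genes that act earlier in the cell cycle were counted at 72 h against 0 h. Of 47 measured genes of G1/S and DNA replication 0 were called in V449E (limma, 0 higher and 2 lower at an unadjusted p under 0.05), 15 were lower and 1 higher in FI-Delta, and 3 were lower and 1 higher in GM-CSF. Cdk4, the G1 kinase, differed by -0.85 (SE 0.09, adjusted p = 1.16e-06) in FI-Delta and by -0.54 (SE 0.09, adjusted p = 0.000363) in GM-CSF, and Ccnd2, a D-type cyclin, by 0.83 (SE 0.19, adjusted p = 0.00392) and 0.77 (SE 0.19, adjusted p = 0.015) in the same order. Mcm6 differed by -0.81 (SE 0.15, adjusted p = 0.000578) in FI-Delta and Mcm3 by -0.47 (SE 0.14, adjusted p = 0.0482) in GM-CSF. Myb, a transcription factor of proliferating progenitors, differed by -0.85 (SE 0.14, adjusted p = 0.000188) in FI-Delta and -0.88 (SE 0.14, adjusted p = 0.000351) in GM-CSF. Of all genes 10.7% were called lower in FI-Delta and 3.41% in GM-CSF, and 7.23% in either direction in GM-CSF, so the GM-CSF count is near the background. Called higher were 7.85% in FI-Delta and 3.82% in GM-CSF.

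Of 19 genes linked to cell cycle exit 0 were called in V449E at 72 h (limma, 0 higher and 1 lower at an unadjusted p under 0.05), 6 were higher and 1 lower in FI-Delta, and 4 were higher in GM-CSF. Mxd1, a Max partner that opposes Myc, differed by 1.21 (SE 0.23, adjusted p = 0.000848) in FI-Delta and 1.01 (SE 0.23, adjusted p = 0.00915) in GM-CSF, and Btg2 by 1.00 (SE 0.12, adjusted p = 6.69e-06) and 0.41 (SE 0.12, adjusted p = 0.039) in the same order. Of all genes 7.85% were called higher in FI-Delta and 3.82% in GM-CSF. Of 57 further mitosis genes 0 were called in V449E at 72 h (limma, 3 higher and 0 lower at an unadjusted p under 0.05), 8 were lower and 1 higher in FI-Delta, and 0 were lower and 1 higher in GM-CSF (4 lower at an unadjusted p under 0.05). Called lower were 10.7% of all genes in FI-Delta and 3.41% in GM-CSF, so the 8 lower in FI-Delta are near the background. Cdca7 differed by -0.60 (SE 0.16, adjusted p = 0.0108) and Pbk by -0.51 (SE 0.16, adjusted p = 0.0242) in FI-Delta, and Gtse1, a microtubule-associated protein, by 0.44 (SE 0.11, adjusted p = 0.00676) in FI-Delta and 0.36 (SE 0.11, adjusted p = 0.0462) in GM-CSF.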
